A study of Mus musculus with 6 samples.

Results

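Gm and Rik genes are gene models that carry a serial name in place of a functional one. Names made of Gm and digits come from computational and manual gene annotation, and names ending in Rik go back to the RIKEN cDNA collection. The genes described here are the Gm and Rik genes that were more abundant in activated B cells lacking hnRNPL. They were chosen from the measured values. A gene was kept if its mean normalized count in the hnRNPL-deficient libraries was at least 20 and at least 2 times the wild-type mean, and if the lowest hnRNPL-deficient value lay above the highest wild-type value. The rule found 357 of the 30697 Gm and Rik genes in the table, 254 named Gm and 103 named Rik. The table holds 55421 genes, and 5463 of its Gm and Rik genes had a mean of at least 10 normalized counts over the 6 libraries. A mean of 20 in the deficient group forces that level, so every gained gene passed this filter. The 5106 Gm and Rik genes that passed it without being gained serve as the comparison. With the groups exchanged, the rule found 81 genes.

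The wild-type (WT) mice carried Rosa mT/mG, a reporter that switches to GFP after Cre recombination, together with CD21-cre, which is active in mature B cells. The hnRNPL-deficient (KO) mice carried the same alleles and Hnrnpl F/F. GFP+ splenic B cells of 3 mice per group were activated ex vivo for 24 h with LPS (5 µg/ml) and IL-4 (5 ng/ml), so both groups had seen Cre, the reporter and the stimuli. Poly(A)-selected RNA was sequenced, 1 library per mouse. A lower or higher level can come from fewer or more cells of a type or from less or more RNA per cell, and these cannot be told apart in bulk samples.

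HnRNPL is a nuclear RNA-binding protein that prefers CA-rich sequence and acts on splicing, polyadenylation and transcript stability. Long non-coding RNAs (lncRNAs) are spliced and polyadenylated by the machinery used for mRNA, but many are degraded soon after they are made, by the nuclear exosome. Their annotated classes describe position: lincRNAs lie between genes, antisense transcripts lie across a gene on its opposite strand, and bidirectional promoter lncRNAs start back to back with a gene. TEC models are mostly single-exon transcripts that await experimental proof, and many lie inside introns.

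Reads assigned to genes ranged from 40395186 in KO library 3 to 75180749 in WT library 3. Hnrnpl was at 24371, 25580 and 24174 normalized counts in WT and at 2178, 1519 and 1297 in KO (log2 fold change -3.93, SE 0.173, adjusted p = 2.231e-05 by limma). One library of each group, WT 3 and KO 2, had high Xist and nearly no reads of 4 Y-linked genes, and the other libraries had the reverse. The summed B cell markers spanned 274249 to 350783 in WT and 266462 to 312660 in KO. Of 6 myeloid markers 1 was called higher, Adgre1, at 236, 282 and 315 in WT and 1217, 1337 and 1369 in KO, while S100a8 and S100a9 were at 0 in every library. The T cell, NK cell and platelet lists held no called gene, 1 of 5 erythroid markers (Hbb-bt) was higher and 1 of 5 plasma cell markers (Jchain) was lower. Gm26917 and Gm42418, which take up reads of ribosomal RNA, were not among the gained genes. The part of these differences in the results below was not tested.

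KO library 3, the shallowest, stood apart for unnamed genes. It was the highest KO library for 245 of the 357 gained genes (68.6%). The same held for 56.1% of the other unnamed genes and for 24.9% of the named genes tested. Its values were 1.32 times the mean of the other KO libraries in the median gained gene, 1.24 times in the other unnamed genes and 0.932 times in named genes. When KO library 3 was left out, 281 gained genes still had a KO mean at least 2 times the WT mean, and the whole rule found 293 genes, 270 of them among the 357. Without KO library 1 the rule found 622 genes.

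Some gained transcripts carry the kind of sequence that hnRNPL prefers. The stretches below come from the longest annotated transcript of 5 non-coding gained genes, with 20 bases on either side, and are shown because the share of transcripts with such a stretch is described further on. Capitals mark the CA repeat.
Gm42870: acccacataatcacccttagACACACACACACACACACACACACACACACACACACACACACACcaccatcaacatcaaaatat
1700023B13Rik: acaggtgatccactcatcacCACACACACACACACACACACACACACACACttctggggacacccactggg
D830024N08Rik: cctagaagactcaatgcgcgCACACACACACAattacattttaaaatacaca
A730017L22Rik: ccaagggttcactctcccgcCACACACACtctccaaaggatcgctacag
Gm41541: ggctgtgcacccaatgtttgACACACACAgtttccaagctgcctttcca
The run is 44 bases long in Gm42870, 31 in 1700023B13Rik, 12 in D830024N08Rik and 9 in both A730017L22Rik and Gm41541.

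The gained genes were mostly of low abundance. Their median was 21.4 normalized counts in WT and 65.4 in KO, and the KO means ran from 20.2 to 5451. A KO mean from 20 to below 50 was found in 137 genes, from 50 to below 100 in 98, from 100 to below 500 in 94, from 500 to below 1000 in 17, and of 1000 or more in 11. The ratio of means had a median of 2.79 (quartiles 2.29 and 3.99). It lay below 3 in 208 genes, between 3 and 5 in 92, between 5 and 10 in 43, and at 10 or more in 14. Because the ratio and the lack of overlap chose the genes, these values are a description and carry no test; among all 17640 tested genes the lowest KO value lay above the highest WT value in 17.7%. Summed over all 357 genes, the libraries held 24248, 26022 and 26203 normalized counts in WT and 64928, 65485 and 86027 in KO. That is 3.89 to 4.56 per 10000 normalized counts in WT and 10.98 to 15.5 in KO. The 10 most abundant genes made up 36.9% of the summed KO mean.

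**Figure D1:**
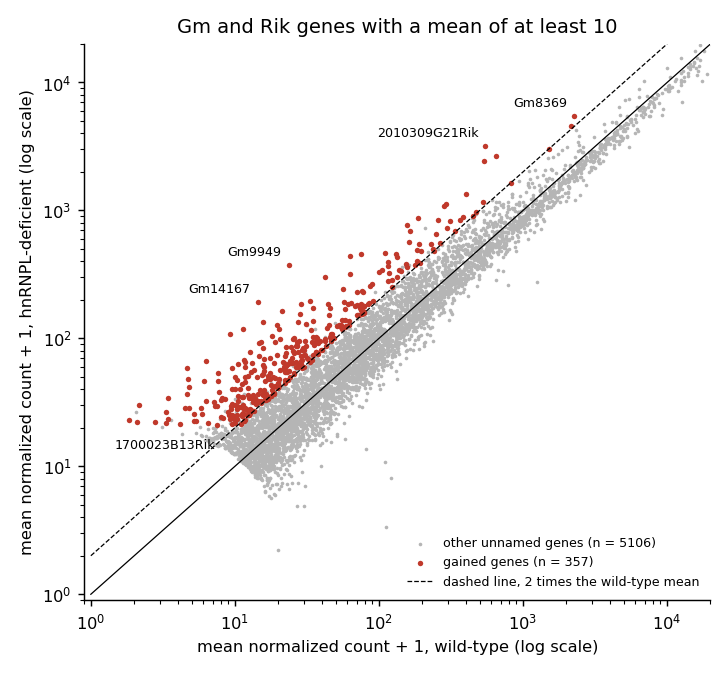
Mean normalized count (plus 1, log axes) of the 357 gained genes (red) and the 5106 other Gm and Rik genes with a mean of at least 10 (grey), WT on the x axis and KO on the y axis. The gained genes lie above the dashed line of 2 times the WT mean, which the rule sets, and reach from 20.2 to 5451 in KO. Of the unnamed genes, 43 lie beyond the axis limit of 20000 and are not drawn, none of them gained.

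The genes at the edge of the rule differ little across it. On the KO mean, 3110006O06Rik (20.2), Gm31532 (20.4) and 2010109A12Rik (20.5) were just inside, and Gm47782 (19.4), A930016O22Rik (19.3) and Gm8813 (19.1) just outside. On the ratio, Gm14295 (2.0013), Gm4631 (2.0041) and Gm25482 (2.0072) were just inside, and A430035B10Rik (1.9963), Gm5141 (1.9952) and 2010315B03Rik (1.9919) just outside. On the overlap, Gm26157, Gm48880 and Gm43593 had a lowest KO value at most 1.004 times the highest WT value. Gm12737, Gm16892 and Gm21738 reached 0.993, 0.993 and 0.989 times and were left out.

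Gm8369 had the highest level. It is annotated as protein-coding (chr19:11485938-11512577, + strand) and lies 3746 bases downstream of Ms4a6c, a member of the membrane-spanning Ms4a family. Its values were 2371, 2219 and 2209 in WT and 5638, 4550 and 6164 in KO, a ratio of 2.40. Ms4a6c itself, which the rule did not use, rose by 0.99 on the log2 scale (SE 0.248, adjusted p = 0.0371 by limma).

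2010309G21Rik, an antisense transcript of the immunoglobulin lambda light chain locus (chr16:19051367-19106749, + strand), was at 596, 498 and 549 in WT and 3169, 3002 and 3402 in KO, 5.82 times the WT mean with little spread in either group. A730017L22Rik, a processed transcript whose start lies 99 bases from that of Atrn, was at 627, 602 and 706 in WT and 2680, 2701 and 2623 in KO. 4632427E13Rik, a bidirectional promoter lncRNA next to Rab30, a small GTPase of the Golgi, was at 2022, 2401 and 1991 in WT and 3730, 3820 and 6191 in KO, so KO library 3 alone was far above its group. Rab30 fell, from 703, 635 and 626 in WT to 418, 417 and 359 in KO (log2 fold change -0.72, adjusted p = 0.0142 by limma).

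Gm42870, a TEC model (chr16:19231333-19234802, + strand) and the gene with the long CA run shown above, lies in the immunoglobulin lambda locus as well. It was at 443, 553 and 613 in WT and at 1259, 2096 and 3964 in KO. Its KO values were the most uneven of the 10, with KO library 3 on top. The groups did not overlap, which the rule requires of every gained gene. Gm3448 and 2610008E11Rik, both annotated as protein-coding, had ratios of 3.30 and 2.20. The remaining genes of the 10 most abundant, Gm14295, Gm4631 and Gm14288, belong to a cluster on chromosome 2 that is described further on.

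The light chain genes around 2010309G21Rik and Gm42870 were looked at after the values of both had been seen. They lie on the - strand, opposite to both gained genes, and code for the variable (V), joining (J) and constant (C) segments of lambda light chains, which a minority of mouse B cells carries. 2010309G21Rik overlaps 6 of them. Of 10 tested segments in the locus, 6 were called higher by limma and 0 lower, against 7.28% called higher among all tested genes. Iglc1 was at 3477, 3718 and 3576 in WT and 11723, 11259 and 11148 in KO (log2 fold change 1.66, SE 0.0855, adjusted p = 3.338e-05 by limma), so its groups were far apart. Iglj1 next to it was at 29.0, 44.1 and 34.4 in WT and 176, 261 and 185 in KO (adjusted p = 0.00129 by limma). On the log2 scale Iglv1 rose by 1.06, Iglv2 by 1.02, Iglv3 by 0.96 and Iglc2 by 0.74. Iglc3 did not share this direction, at 6687, 8210 and 7620 in WT and 4957, 5918 and 4564 in KO (log2 fold change -0.55, adjusted p = 0.0285 by limma), short of a call. Gm43388, a lincRNA across Gm42870 on the - strand, fell from 744, 853 and 760 in WT to 218, 204 and 358 in KO (log2 fold change -1.64, adjusted p = 0.00342 by limma). Constant segments are near copies of each other, so the split of reads between them is uncertain, and the share of lambda-bearing cells in each mouse was not measured. No other gained gene lay within 50 kb of a tested or untested immunoglobulin segment of the table.

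The genes with the largest ratios at a KO mean of at least 50 were mostly non-coding. The same holds for the gained genes in general, of which 12.3% were annotated as protein-coding. Gm9949, a lincRNA, was at 30.2, 13.8 and 23.7 in WT and 410, 290 and 422 in KO, 16.6 times the WT mean. Gm14167, next to Fkbp1a, was at 12.8, 18.2 and 9.18 in WT and 199, 191 and 184 in KO. Fkbp1a encodes FKBP12, the binding protein of FK506, and its log2 fold change was -0.43 (adjusted p = 0.039 by limma), short of the 1.5-fold that a call asks for. Gm37933, back to back with the ribosomal protein gene Rps3a1, had a ratio of 7.97, against a log2 fold change of -0.10 in Rps3a1.

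Gm19522, antisense to Zbtb20, a transcriptional repressor, was at 5.80, 5.19 and 0 in WT and 94.7, 29.3 and 48.0 in KO. D830024N08Rik, antisense to Tecr, an enzyme of fatty acid elongation, was at 5.80, 10.4 and 8.41 in WT and 75.7, 97.9 and 145 in KO. Neither Zbtb20 (log2 fold change 0.08) nor Tecr (-0.53, adjusted p = 0.0391 by limma) was called. A630001O12Rik, Gm34121 and 4930519P11Rik had ratios of 11.5, 9.10 and 7.27, and in each the KO libraries lay close together. C530043K16Rik, a TEC model in an intron of Apbb2, was carried by KO library 3, at 16.2, 29.3 and 114 in KO against 4.64 to 8.41 in WT.

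Of the 357 genes, 9 had a WT library at 0 and none had all 3. In 2 genes the WT libraries held only 3 reads together, and a ratio then has a wide counting interval. 1700023B13Rik had 61 reads in KO, 24.6 times the WT rate per read sequenced (95% exact interval 8.03 to 123). D630023F18Rik had 78 reads in KO, 31.4 times the WT rate (10.4 to 156). These intervals cover counting error only.

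**Figure D2:**
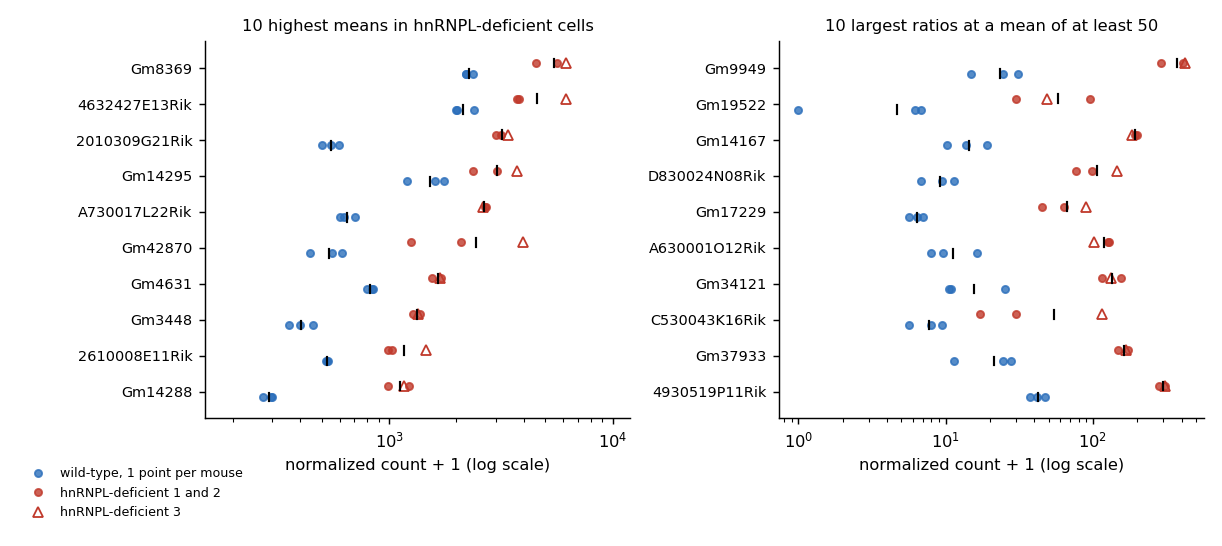
Normalized count (plus 1, log axis) in each mouse for the 10 gained genes with the highest KO mean (left) and the 10 with the largest ratio at a KO mean of at least 50 (right). Points are WT (blue) and KO libraries (red, KO 3 as an open triangle), black ticks are group means; A730017L22Rik and Gm14167 had tight KO values, while Gm42870 (1259 to 3964) and C530043K16Rik (16.2 to 114) were widely spread with KO 3 on top.

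By annotated type, lincRNAs gave 72 of the gained genes, antisense transcripts 69, TEC models 67, protein-coding genes 44, pseudogenes 40, processed transcripts 39, bidirectional promoter lncRNAs 13, small RNAs 8 and sense intronic transcripts 5. Measured against what could have been gained, 20.2% of the processed transcripts, 19.2% of the lincRNAs, 18.3% of the bidirectional promoter lncRNAs and 14.3% of the antisense transcripts with a mean of at least 10 were gained. The share was 10.3% of protein-coding genes, 6.75% of TEC models and 1.65% of pseudogenes. Pseudogenes made up 46.5% of the other unnamed genes but 11.2% of the gained ones.

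The types differed in how they spread over the KO libraries. In the median gained TEC model the value relative to the WT mean was 1.80 in KO 1, 2.35 in KO 2 and 3.61 in KO 3. In gained lincRNAs it was 2.80, 2.91 and 3.73, and in protein-coding ones 2.56, 2.28 and 2.84. KO 3 was the highest KO library in 60 of 67 gained TEC models and in 775 of the 925 TEC models that were not gained, so TEC models outside the gained set were high in it too. The ratio of 2 held without KO 3 in 42 of 67 TEC models, 63 of 72 lincRNAs, 58 of 69 antisense transcripts, 37 of 39 processed transcripts and 1 of 8 small RNAs.

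**Figure D3:**
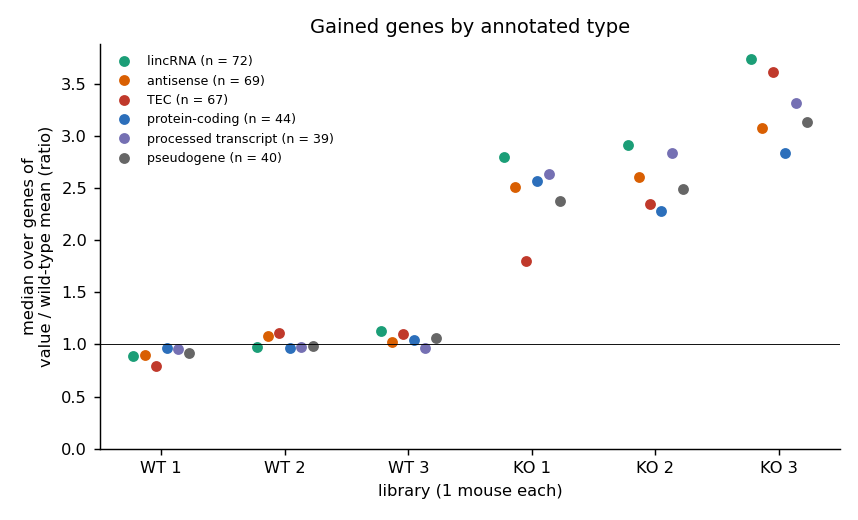
Median over the gained genes of each annotated type of the value in a library divided by the WT mean, for the 6 libraries. The 6 types lie between 0.793 and 1.12 in WT; TEC models (red) reach 1.80 in KO 1 and 3.61 in KO 3, whereas protein-coding genes (blue) stay between 2.28 and 2.84.

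The gained genes also differed from other unnamed genes in features that the rule did not use. Their longest annotated transcript had a median of 1854 bases, against 948 in the other unnamed genes, many of them pseudogenes, and 30.8% had a single exon, against 72.1%. Within types the lengths were closer, at 1676 against 1451 bases in lncRNA types and 2261 against 2238 in TEC models. Among lncRNA types the single-exon share was 8.59% of 198 gained genes and 22.1% of 1081 others. Median GC content was 44.8% against 47.4%.

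The letters CACACACA, searched on the transcript strand, occurred in the longest transcript of 89 gained genes (24.9%), in 10.6% of the other unnamed genes and in 16.6% of all tested genes. Longer transcripts hold more of any short word, and gained genes as a whole were longer. Within transcripts shorter than 1000 bases the shares were 8.16% of gained and 3.50% of other unnamed genes, from 1000 to below 3000 bases 25.1% and 13.8%, and from 3000 bases 48.5% and 32.7%. Within lncRNA types they were 27.8% and 14.0%, but within TEC models they were alike, at 26.9% and 26.1%. The longest such run was 66 bases in a gained gene, 60 in the other unnamed genes and 82 among all tested genes. Binding of hnRNPL was not measured in these files, and a match is a matter of letters alone.

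Promoter windows from RefSeq (GRCm38.p6, 250 bases before to 50 after the annotated start) were on hand for 140 of the 357 gained genes, with 168 windows. CACACACA on either strand was found in 2.98% of these windows, in 4.21% of those of other unnamed genes and in 4.09% of all 32851 windows. In contrast to the transcripts, the windows of gained genes did not hold this word more often.

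The gained genes were not spread evenly. On chromosome 2, 22 of them lay between chr2:175086501 and 177855503 (GRCm38), a stretch of 2769003 bases that held 49 tested genes. These are largely copies of zinc finger genes, a family of transcription factors that has spread by tandem duplication, many with a KRAB domain that recruits the silencing cofactor TRIM28. Of the 22 genes, 13 are annotated as protein-coding and 8 as pseudogenes.

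Some of their start regions are near copies of each other. RefSeq held a window for 8 of the 22, and the first window of 7 of them, all but Gm4631, shared a word of 59 bases, in capitals in these 3 (GRCm38.p6).
Gm14288, chr2:175800989-175801288, - strand: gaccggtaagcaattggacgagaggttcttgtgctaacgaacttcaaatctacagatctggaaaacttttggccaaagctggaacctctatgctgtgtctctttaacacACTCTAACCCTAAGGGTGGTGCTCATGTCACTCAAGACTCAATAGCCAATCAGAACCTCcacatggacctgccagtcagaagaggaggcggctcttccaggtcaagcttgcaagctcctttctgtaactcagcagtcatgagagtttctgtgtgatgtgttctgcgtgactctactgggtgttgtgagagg
Gm14295, chr2:176798350-176798649, + strand: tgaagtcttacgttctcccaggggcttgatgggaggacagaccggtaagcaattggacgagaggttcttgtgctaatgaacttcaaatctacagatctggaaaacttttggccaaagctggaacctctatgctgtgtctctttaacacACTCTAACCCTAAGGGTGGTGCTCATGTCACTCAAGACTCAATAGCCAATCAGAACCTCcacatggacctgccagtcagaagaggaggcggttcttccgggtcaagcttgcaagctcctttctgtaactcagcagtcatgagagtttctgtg
Gm14322, chr2:177759038-177759337, + strand: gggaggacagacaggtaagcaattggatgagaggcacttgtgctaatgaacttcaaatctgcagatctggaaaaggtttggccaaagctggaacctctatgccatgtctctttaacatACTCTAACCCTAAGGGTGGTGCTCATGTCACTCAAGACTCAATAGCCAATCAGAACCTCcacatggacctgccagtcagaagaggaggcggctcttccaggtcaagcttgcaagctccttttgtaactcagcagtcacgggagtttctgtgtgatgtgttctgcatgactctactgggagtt
Windows were aligned in pairs without gaps, so an inserted or missing base lowers the count of identical bases on 1 side of it. The windows of Gm14288 and Gm14440 were identical over all 299 aligned bases, and those of Gm14288 and Gm14295 over 258 of 261. Those of Gm14288 and Gm14322, which differ in length after the shared word, matched over 227 of 291. Gm2004 matched at 53.4% of aligned bases with Gm14322 and 73.0% with Gm14288. These shares understate its likeness, since its window holds an inserted base before the shared word. The first window of Gm4631 had 30.3% to 34.5% with the other 7. The shared word contains CCAAT, which 37.4% of all windows hold on one strand or the other, 41.7% of those of gained genes.

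Searched on both strands of all 32851 windows, the 59-base word occurred at 22 genes, all of them on chromosome 2 within 1 Mb of the cluster and all of them tested. Gm4631 was among them through another of its annotated starts. Of these 22 genes 8 were gained unnamed genes. The other 14 were not chosen by the rule. Those named Gm had been screened by it on these same values and left out, while the Zfp genes had not been screened. Of the 14, 9 were called higher by limma and 0 lower, against 7.28% called higher among all tested genes. The 9 were Zfp965, Zfp966, Zfp967, Zfp968, Zfp970, Zfp971, Zfp973, Gm14325 and Gm2007, with log2 fold changes from 0.78 (Zfp973) to 1.91 (Zfp970). The 5 that were not called, Gm14305, Gm14308, Gm14434, Gm2026 and Gm4724, lay between 0.27 and 0.33. The count was 9 of 14 again without KO library 3.

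Within the cluster itself, 27 tested genes were not gained, of which 11 were called higher and 0 lower. Those of the 27 named Gm had been screened by the rule on these same values and left out. All 7 named Zfp genes in the cluster, which the rule did not screen, were called higher. Gm14288 stood at 296, 272 and 299 in WT and 1222, 984 and 1161 in KO, and Gm14440 at 295, 261 and 294 in WT and 1193, 952 and 1113 in KO. These 2 sets of values differ by at most 4.22% in any library, and the 2 genes may have received the same reads. Gm14295, the most abundant of the cluster, was at 1758, 1201 and 1608 in WT and 3035, 2367 and 3738 in KO. Gm4631 was at 837, 843 and 793 in WT and 1713, 1557 and 1686 in KO. Gm14296, Gm14399 and 2210418O10Rik had ratios of 2.30, 2.02 and 2.69. Among all 49 genes, 9 pairs differed by at most 10% in every library, 1 of them made of gained genes. Since reads of near-identical copies can be split or shared between them in counting, levels of single genes in this cluster are uncertain, and the 22 genes are not 22 separate observations. KO library 3 was the highest KO library for 10 of the 22, and 18 kept a ratio of 2 without it.

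**Figure D4:**
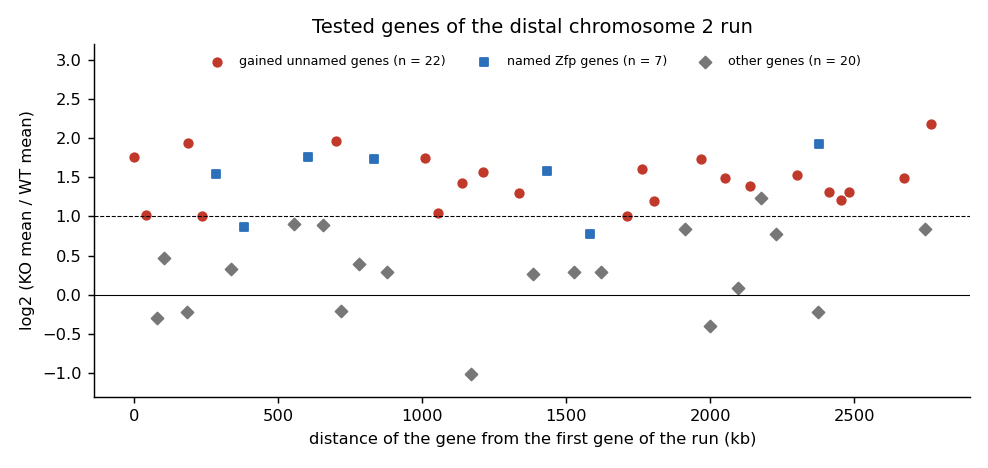
Log2 ratio of KO to WT means for the 49 tested genes of the distal chromosome 2 cluster, by distance from its first gene in kb. Gained unnamed genes (red, 22) lie above the dashed line at 1 by the rule; all 7 named Zfp genes (blue) lie above 0, and the 20 other genes (grey) are spread around and above 0.

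Smaller groups lay elsewhere. Runs of at least 5 gained genes with gaps of at most 1 Mb were found at 5 places and held 47 genes, 8 of them on chromosome 1, 6 each on chromosomes 17 and 8, and 5 on chromosome 13. The run on chromosome 17 held 17 tested Zfp genes, of which 6 were called higher and 0 lower, and that on chromosome 13 held 22, of which 2 were called higher and 0 lower. These are 35.3% and 9.09%, so on chromosome 13 the share was close to the 7.28% of all tested genes. At a gap of 10 kb there were 9 groups with 23 genes. The group with the highest summed level was on chromosome 1 (chr1:194976375-195044679), with A330023F24Rik, Gm37334, 9630010A21Rik and Gm37366 all on the + strand. A330023F24Rik was at 82.4, 78.7 and 95.6 in WT and 177, 229 and 363 in KO, and the other genes of the group had ratios of 3.49, 4.24 and 3.21. Groups on chromosome 15 (Gm37320, Gm26621, Gm20732), chromosome 1 (A130050O07Rik, Gm26930, D130019J16Rik), chromosome 10 (Gm30698, Gm40621) and chromosome 17 (Gm30531, Gm41541) followed. In the latter, Gm41541 rose from 3.71 to 47.1 in the mean and Gm30531 from 46.2 to 107. Only 3 gained genes (0.840%) lay within 20 Mb of Hnrnpl on chromosome 7, against 2.15% of the other unnamed genes.

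The question of whether nearby named genes moved as well can be put to values that the rule did not use. Reads of a pair on the same strand cannot always be told apart, as described below. The values of such neighbours are therefore not fully separate from those that chose the gained genes. Of the 357 genes, 253 lay within 10 kb of a named protein-coding gene. An overlap on the opposite strand was found for 111 (31.1%, against 20.7% of other unnamed genes), an overlap on the same strand for 62 (17.4% against 28.1%), and a start back to back with that of the neighbour within 2 kb for 52 (14.6% against 3.72%). Of the 220 neighbours tested, 31 were called higher (14.1%) and 15 lower (6.82%). Among all named protein-coding genes 7.77% were called higher and 4.91% lower. The neighbours of other unnamed genes stood at 5.11% higher and 4.75% lower. Where the nearest named protein-coding gene lay farther than 10 kb from a gained gene, 13 of 59 tested were called higher (22.03%) and 1 lower. For other unnamed genes, such distant genes stood at 12.98% higher and 4.28% lower. The gained genes of the chromosome 2 cluster lie farther than 10 kb from its 7 named Zfp genes, all of which were called higher. How far the share of distant genes rests on that cluster was not tested.

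Within 10 kb, the shares depended on how the pair was arranged. Of 56 tested genes that held a gained gene on the same strand, 17 were called higher (30.4%) and 2 lower, with a median log2 fold change of 0.41. In the other unnamed genes such hosts were called higher in 4.81% of 977. Of 93 genes with a gained gene on the opposite strand 8 were higher and 8 lower, and of 52 back-to-back neighbours 2 were higher and 3 lower, with medians of -0.01 and -0.03. In 8 neighbours with a gained gene downstream on the same strand, 4 were higher, against 11 of 228 (4.8%) in the other unnamed genes. Of the 62 genes in a same-strand overlap, 36 were TEC models and 51 shared no exonic base with the host. A read from the unspliced transcript of a host and one from such a gene carry the same strand and cannot be told apart in these counts. KO library 3 was also the highest KO library in 54 of these 62, and 27 kept a ratio of 2 without it. Without that library 14 of the 56 hosts were called higher.

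**Figure D5:**
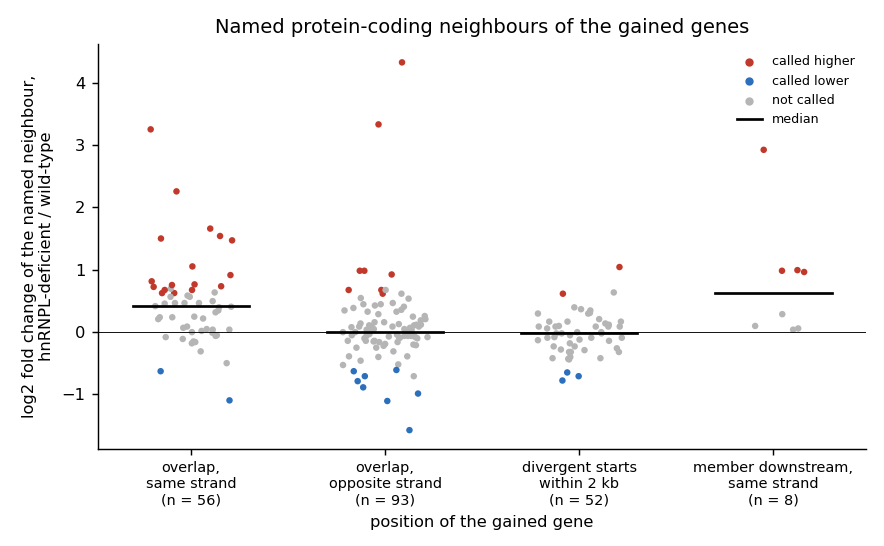
Log2 fold change (limma, KO against WT) of the tested named protein-coding neighbours of gained genes, by arrangement; red points were called higher, blue lower, grey not called, and black bars are medians. The median is 0.41 for 56 hosts on the same strand and near 0 for 93 antisense (-0.01) and 52 back-to-back (-0.03) neighbours.

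The hosts on the same strand included genes with large changes. Pde7b, a phosphodiesterase that breaks down cAMP, was at 23.2, 35.4 and 33.6 in WT and 309, 247 and 348 in KO (log2 fold change 3.26, SE 0.257, adjusted p = 0.000295 by limma). Gm17229 within it was at 4.64, 6.05 and 5.35 in WT and 63.1, 44.4 and 89.1 in KO. Dglucy, the D-glutamate cyclase of mitochondria, rose by 2.26, with 396, 440 and 500 in WT and 1886, 2171 and 2349 in KO, and the TEC model Gm48771 in it had a ratio of 5.09. Sesn2, a stress-induced inhibitor of mTORC1 signalling, rose by 1.47, and Gm12981 in it was at 3.48, 26.8 and 33.6 in WT and 44.2, 38.4 and 48.0 in KO. Apbb2 rose by 1.66 and Pard3b, a cell polarity gene that held both Gm38075 and Gm38278, by 1.54. Mgmt, a DNA repair methyltransferase, was at 34.8, 47.6 and 19.9 in WT and 119, 79.8 and 83.6 in KO and was called higher (adjusted p = 0.0328 by limma), a call that was lost when WT library 3 was left out (log2 fold change 1.17, adjusted p = 0.103). Mgat5, an N-glycan branching enzyme, held 3 gained TEC models and rose by 0.81. Mmd went the other way, falling by 1.11, while Gm45716 had a ratio of 2.31.

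Cd55, which encodes a complement regulator on the cell surface, rose most among genes with a gained gene downstream. It was at 3361, 2667 and 2996 in WT and 21417, 16503 and 33440 in KO, and Gm15675, 1836 bases past its end on the same strand, was at 154, 199 and 212 in WT and 287, 499 and 862 in KO. Reads running on past the end of Cd55 and reads of Gm15675 itself cannot be told apart in these counts.

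On the opposite strand, Cdkn1a, the gene of the cell cycle inhibitor p21, was at 440, 553 and 421 in WT and 4739, 5193 and 4377 in KO (log2 fold change 3.34, SE 0.136, adjusted p = 2.106e-05 by limma). The TEC model 1700023B13Rik (chr17:29093416-29094461, - strand) lies within it, shares 273 exonic bases with it, and was at 0, 1.73 and 0.765 in WT and 24.3, 13.1 and 28.8 in KO. Iqch was at 0, 4.32 and 5.35 in WT and 66.7, 63.6 and 63.0 in KO, while Gm16759 across it went from a mean of 3.62 to 35.5. The opposite movement was seen at Tmem267, which fell by 1.59 on the log2 scale with 3110070M22Rik at a ratio of 2.28, and at Bcl2a1d, of the BCL2 family, which fell by 1.12 with Gm10634 at 2.79. Of the 111 antisense genes, 84 share exonic bases with the neighbour, and their counts rest on the authors' strand-specific counting.

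Cdkn1a and Sesn2 are targets of p53, as is Trp53cor1, a named lncRNA. Of 23 tested genes of a p53 target list 17 were called higher and 0 lower (median log2 fold change 1.01, against -0.03 over all tested genes). Phlda3 rose by 4.42, Plk2 by 4.03 and Trp53cor1 by 6.15. Lists of nuclear RNA decay and of silencing were set beside these. Of 25 tested genes of nuclear RNA decay, 0 were called by limma, edgeR or DESeq2. The list holds exosome subunits, their adaptors and other factors such as Xrn2, Ncbp1, Ncbp2 and Srrt. Gene counts do not show splicing, and the paper names Exosc1 and Exosc10 among factors with splicing changes. At an unadjusted p under 0.05 there were 7, all lower, of which 3 also had an adjusted p under 0.1 by limma but changed by less than 1.5-fold, and the log2 fold changes ran from -0.49 to 0.32 (median -0.18). Of 23 tested genes of DNA and histone methylation and silencing, 0 were higher and 3 lower (median -0.21), against 7.28% higher and 4.08% lower among all tested genes. By edgeR 2 were lower and by DESeq2 3. The 3 by limma were Hells, a chromatin remodeller needed for DNA methylation (-0.95, adjusted p = 0.00892), Dnmt3b, a de novo DNA methyltransferase (-0.65, adjusted p = 0.0376), and Uhrf1, which guides maintenance methylation (-0.62, adjusted p = 0.06).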

How the data were processed

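Per the study's methods, the authors trimmed reads with fastp 0.23.1, aligned them to mm10 with STAR 2.7.9a, counted them per gene by strand with featureCounts on a GENCODE annotation, and normalized them with DESeq2 1.38.2. The deposited values are gene counts divided by size factors, a signal with 1 column per mouse. Columns of the authors' own comparison, which hold log2 fold changes, their standard errors, a test score and p-values, were not used. Depth was 40395186 to 75180749 reads on genes, so a gene near 20 normalized counts rests on few reads per library.

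The members, lists and rules were chosen with earlier results of these data known. Genes with a mean of at least 10 (17640) were tested with limma 3.58.1 (R 4.3.3) with its trend option, after adding 1 and taking log2. Fold changes are on that scale, which understates low genes. A gene was called where the p adjusted by Benjamini-Hochberg was under 0.1 and the change at least 1.5-fold. Whole reads came back for 100% of values, and edgeR 4.0.16 and DESeq2 1.42.0 were run as alternatives on 5 libraries, since the automatic test did not accept KO library 2. Scripts were tested on simulated data. The limma p-values set the difference between groups against the spread between 3 mice per group. The variance of each gene was drawn towards a trend over all tested genes.

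Coordinates, types and transcripts come from the GENCODE release in hand, on GRCm38, the build of mm10. The authors used a later release. All 357 members matched by identifier. The neighbour is the nearest named protein-coding gene, the first by symbol where several overlap. Named are the 10 members with the highest KO mean, the 10 with the largest ratio at a KO mean of at least 50, the 10 most abundant coding ones, the 5 leading groups within 10 kb, 3 on each side of each threshold, the 12 called neighbours with the largest change, and called genes of the lists. Ms4a6c, Rab30, Mgat5, the neighbours of the members named first, D630023F18Rik, the lambda locus, the Zfp genes and the shared word were chosen after their values were seen. The neighbour of 1 named member is not reported here. Overlap with repeats was not computed, since it needs a masked genome. One of 24 listed silencing genes had no match by name.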

Additional observations from a re-analysis of the deposited data

How the results depend on the processing

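Other pseudocounts, filters on low values, scalings, variance settings and count tests were run on the counts of called genes (all tested genes, neighbours, same-strand hosts, the chromosome 2 cluster, holders of the shared word, lambda segments, Zfp genes, p53 targets and, for pseudocounts and scalings, the 3 gene lists combined), and each stayed within 1.5 times of the value given; no direction of Hnrnpl or of the 12 named neighbours reversed. Counts by type and position, runs and CACACACA shares were computed once. The counts for lambda segments, hosts, the cluster, the word, Zfp genes and p53 targets were added to the alternatives after seeing the data. Exceptions came from stricter calls, left-out libraries and other forms of the rule. At an adjusted p under 0.05 and 2-fold, 610 genes were higher and 216 lower, and 11 neighbours were higher and 3 lower. Leaving out 1 library gave 850 to 1124 genes higher (850 without WT library 3) and 483 to 695 lower, 24 to 34 neighbours higher and 14 to 15 lower, 13 to 19 same-strand hosts higher, and 44 to 67 of 348 Zfp genes higher. The rule found 220 genes at a KO mean of at least 50, 556 at a ratio of at least 1.5, 149 at a ratio of at least 3, and 293 to 622 with 1 library left out; the highest was without KO library 1. With overlap allowed it found 418, and with equal library totals 376. Of 191 alternative values of the 12 named neighbours, 190 gave the same call and 1 did not, Mgmt without WT library 3 (1.17, adjusted p = 0.103 by limma). The labels do not say whether libraries that share a number are paired, and the values did not settle it. Deviations of libraries with the same number correlated by 0.429, 0.32 and 0.066, and those of other combinations by -0.458 to 0.305. WT library 3 went best with KO library 2 (0.305), both with high Xist. The main test took the libraries as unpaired. With the replicate number as a block, 1755 genes were higher and 1018 lower, 32 neighbours higher and 16 lower. Low counts limit the ratios of the members with few WT reads.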

Other observations

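Zinc finger genes named Zfp and a number were called higher outside the clusters as well. This set was chosen after the values were seen. Of 348 tested in all, 65 were called higher by limma (18.7%) and 3 lower, with a median log2 fold change of 0.22, against 7.28% higher and a median of -0.03 over all tested genes. Outside the 5 runs of gained genes, 50 of 302 were higher (16.6%) and 3 lower, with a median of 0.20. Without KO library 3, 61 of the 348 were called higher.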
